A study of Mus musculus with 12 samples.

Results

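Long intergenic noncoding RNAs (lincRNAs) were measured over 4 circadian times in the hippocampus of mice, a brain structure needed for memory. The array names each lincRNA target by a chromosome interval and a strand, forward or reverse, in place of a gene name. These interval names marked 16181 of the 55681 non-control probes and 4607 regions, counting the strands of an interval apart. A probe counted as detected where the scanner marked it well above background on all 3 arrays of at least 1 circadian time. By this rule 7036 lincRNA probes were detected, and 2998 regions had a detected probe and complete values.

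The mice were adult wild-type males kept in constant darkness, 12 in all, each with its own 1-colour array. The 3 mice at CT0 (start of the subjective day) had been in darkness for 36 hours, those at CT6 for 42 hours, those at CT12 (start of the subjective night) for 48 hours and those at CT18 for 30 hours. Hours in darkness and array position therefore changed with circadian time and cannot be told apart from it. Strain and age in weeks are not given in the sources used here. Mice are numbered as in the labels.

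LincRNAs are transcripts with little or no protein-coding potential that come from the stretches between coding genes. Some are known to act on chromatin or on neighbouring genes, and many are transcribed beside genes of developmental transcription factors. In the circadian clock, the activators Clock and Bmal1 drive transcription of their own repressors, the Per and Cry genes, and of many output genes, so that transcript levels rise and fall over the day. In brain tissue lincRNAs are often restricted to particular regions and cell types.

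The probes given here are those of regions on which the results turn, and that either had no named probe of their own strand within 10 kb or lay in or beside a named noncoding RNA. Each is the 60-base sequence as deposited, 5′ to 3′, with probe positions on mm9. The first 3 belong to the region with the smallest p over the 4 times, at chr1:85117750-85129200 on the forward strand.
chr1:85119988-85120047, forward: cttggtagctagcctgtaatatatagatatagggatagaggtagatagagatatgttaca
chr1:85120101-85120160, forward: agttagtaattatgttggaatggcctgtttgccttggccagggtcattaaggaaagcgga
chr1:85120161-85120220, forward: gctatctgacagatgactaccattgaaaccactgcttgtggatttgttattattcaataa
The next 4 stood for regions that were among the leading differences between pairs of times.
chr6:128393686-128393745, forward: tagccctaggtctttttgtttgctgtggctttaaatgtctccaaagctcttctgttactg
chr5:139230333-139230392, reverse: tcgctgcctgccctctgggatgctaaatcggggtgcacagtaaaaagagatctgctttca
chr1:135956757-135956816, reverse: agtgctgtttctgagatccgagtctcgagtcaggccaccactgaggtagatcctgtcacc
chr13:56851713-56851772, reverse: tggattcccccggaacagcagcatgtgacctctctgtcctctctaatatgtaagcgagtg
These 3 adjoining probes lie on the strand facing Firre and were all far lower in a single mouse.
chrX:47915578-47915637, forward: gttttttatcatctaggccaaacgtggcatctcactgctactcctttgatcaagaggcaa
chrX:47915638-47915697, forward: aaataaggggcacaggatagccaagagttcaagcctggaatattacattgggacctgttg
chrX:47915698-47915757, forward: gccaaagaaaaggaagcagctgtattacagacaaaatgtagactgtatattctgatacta
The last 3 lie in regions that hold a probe of Emx2os or of Gm2694, or in or near Malat1, all named noncoding RNAs.
chr19:59508866-59508925, reverse: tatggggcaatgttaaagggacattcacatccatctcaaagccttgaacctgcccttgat
chr8:90049387-90049446, forward: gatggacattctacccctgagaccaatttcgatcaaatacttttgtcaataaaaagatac
chr19:5802130-5802189, reverse: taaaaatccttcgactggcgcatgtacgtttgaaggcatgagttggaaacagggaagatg

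The libraries differed in ways that bear on lincRNAs. CT12 mouse 11 correlated with the other libraries at r between 0.921 and 0.950 over the 2998 regions, and CT0 mouse 3 with them at 0.921 to 0.971, while the other 10 libraries correlated with each other at 0.974 to 0.991. In CT12 mouse 11, the 8 markers of pyramidal and granule neurons, which define hippocampal tissue, lay at a median of -4.00 log2 from their mean over the mice, against -0.14 to 0.57 in the other 11. Their summed level was 10.9 there and 55.3 to 87.9 elsewhere, on a linear scale on which 1 is the 75th percentile of the array. 1 of the 8 was not well above background in that mouse, and all 8 were in the other 11. Summed levels of other markers also differed in that mouse: 143 for interneurons (51.6 to 64.5 in the others), 347 for oligodendrocytes (184 to 258), 148 for blood (41.1 to 75.3) and 24.3 for microglia (36.8 to 49.7). The 8 thalamus markers summed to 86.5 in that mouse and to 5.79 to 45.3 in the others, but their median deviation was higher in CT12 mouse 10 (1.48) than in CT12 mouse 11 (0.49), and -0.45 to -0.01 in the other 10. The 9 measured choroid plexus markers differed between mice at every time, with summed levels from 1.77 to 358 in the 11 others. The part of these in any result was not tested, and for the main time differences named, values without CT12 mouse 11 and without CT0 mouse 3 stand beside the others. In bulk tissue, fewer cells of a type and less RNA per cell cannot be told apart.

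LincRNA probes were detected less often than probes of coding genes. Of the 16181 lincRNA probes, 43.5% were detected, against 75.4% of 27512 probes of protein-coding RefSeq genes and 42.9% of 1495 probes of RefSeq long noncoding RNA (lncRNA) genes. On all 12 arrays, 35.8% of lincRNA probes and 71.0% of coding probes lay well above background. A further 4039 lincRNA probes were not well above background on any array. By region, 65.1% of the 4607 had a detected probe. Detection rose with the GC content of the probe, from 24% of 317 lincRNA probes at 30% GC or less to 84.0% of 338 above 60%. At like GC content the coding probes were detected more often: between 30% and 40% GC the shares were 38.9% and 73.7%, and between 50% and 60% they were 57.2% and 84.1%.

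**Figure D1:**
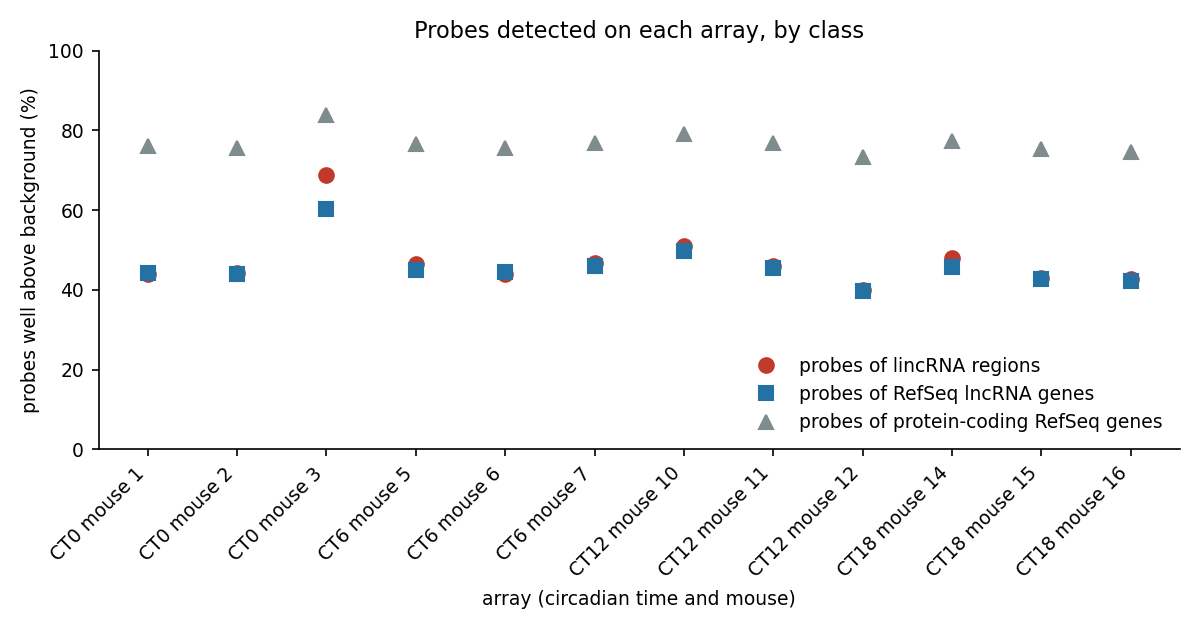
Share of probes well above background (%) on each of the 12 arrays, for lincRNA regions, RefSeq lncRNA genes and protein-coding RefSeq genes. LincRNA probes lie between 39.9% and 51.0% on 11 arrays and at 68.8% on CT0 mouse 3.

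A single array stood apart in detection. On 11 arrays between 39.9% and 51.0% of lincRNA probes lay well above background, while 68.8% did on the array of CT0 mouse 3. On that array 2794 lincRNA probes were above background that were so on no other array. For each other array this number was 10 to 114. The excess differed with GC content: at 30% GC or less, 27.1% of lincRNA probes were detected in CT0 mouse 3 and 21.1% to 30.0% on the other arrays, and above 60% GC all of them were, against 81.4% to 89.3%. Between 40% and 50% GC the shares were 71.8% in CT0 mouse 3 and 37.1% to 49.2% elsewhere, and between 50% and 60% GC they were 93.9% and 52.2% to 66.1%. The share of coding probes on that array was 83.9%, against 73.4% to 79.2% on the others. A probe detected on this array alone did not count as detected at CT0, since all 3 arrays of a time were required.

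LincRNA levels, each in log2 units relative to the 75th percentile of the array, were distributed much like those of named lncRNAs and below those of coding genes. The median over regions was -2.43, with 10% of regions below -4.45 and 10% above 1.09. For 586 RefSeq lncRNA genes the median was -2.42, and for 15168 coding genes it was 0.64. Above the array's 75th percentile lay 18.1% of regions, 17.2% of lncRNA genes and 57.9% of coding genes. Probes differ in how well they bind, so these compare classes and not single probes. The median standard deviation between mice of the same time was 0.30 for lincRNA regions, 0.30 for lncRNA genes and 0.19 for coding genes. With all names split into 4 equal groups by level, it was 0.39 for lincRNA regions and 0.42 for coding genes in the dimmest group, and 0.21 and 0.15 in the brightest.

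**Figure D2:**
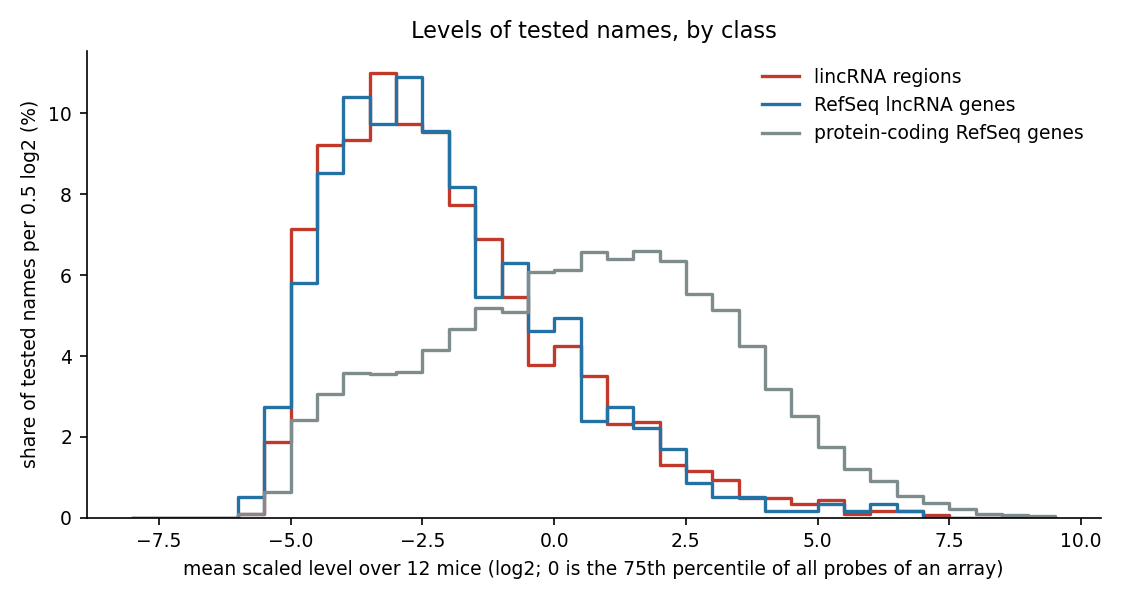
Distribution of the mean scaled log2 level over 12 mice (x axis) as the share of tested names per bin (%), for 2998 lincRNA regions, 586 RefSeq lncRNA genes and 15168 protein-coding genes. The lincRNA and lncRNA curves overlap, with medians of -2.43 and -2.42, and the coding curve lies higher, with a median of 0.64.

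The brightest lincRNA regions showed no time difference that passed a test. The highest mean level was that of chr19:5801802-5802597 on the reverse strand, 6.03 kb from a probe of Malat1 on the same strand. Gene ends were not looked up, so the region may be part of Malat1 itself. Malat1 is an abundant nuclear noncoding RNA. This region read 8.81, 8.99 and 8.91 at CT0, 8.85, 8.87 and 8.89 at CT6, 8.54, 8.67 and 9.03 at CT12, and 8.76, 8.75 and 8.98 at CT18, so the times overlapped. A dimmer probe of the region read 6.46, 4.53 and 5.42 at CT6 and 5.81 to 6.43 in the other mice. Among the 10 brightest was also chr2:156213798-156216885 on the reverse strand, which holds a probe of Norad, a noncoding RNA known to bind Pumilio proteins. It ranged from 6.27 in CT12 mouse 11 to 6.97. None of the 10 reached an unadjusted F test p under 0.05 by limma, the smallest being 0.242, where 10.6% of all names tested did. With all names split into 4 equal groups by level, 3.14% of 159 lincRNA regions in the brightest group did. Among so few regions, the lack of any does not set them apart. Of the 10, 5 were read by probes of 75% to 88.3% GC, against a median of 45% over all lincRNA probes. One region among the 10, chr14:77006215-77063293 on the reverse strand, read 5.56 in CT12 mouse 11 and 6.52 to 7.00 in the other mice.

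Most intervals were read on 1 strand, and 1067 of 3540 on both. Where both were on the array, both were detected in 52.7% of intervals, 1 strand alone in 34.3% and neither in 13.0%. Of the 2473 intervals with probes for 1 strand, 61.0% were detected. Across the 12 mice, the values of the 2 strands of an interval had a median correlation of 0.32, or 0.24 without CT12 mouse 11. Different probes of a single lincRNA region had a median correlation of 0.59 over 1802 regions, or 0.52 without that mouse. For coding genes with several detected probes these values were 0.63 and 0.51. These correlations describe values that share arrays and carry no test. The 76 lincRNA probes that have the same sequence as a named probe gave a measure of technical agreement: in the 47 pairs detected on both sides, the median absolute difference was 0.10 log2 and 10% exceeded 0.35.

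Many lincRNA regions lay close to genes. The median distance to the nearest probe of a named gene was 16 kb, and 1895 of 4607 regions lay within 10 kb of one. A named-gene probe on the same strand fell within 445 regions, and 75.5% of these were detected. Of the 3892 regions that held no named probe, 63.5% were detected. For regions with a named probe on their own strand, values cannot be told apart from those of the overlapping gene. As gene ends were not looked up, a region close to a same-strand probe may also be part of that gene, which was not tested. Among 3917 regions with several probes, all were detected in 24%, some in 44.3% and none in 31.6%.

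Few lincRNA regions varied over the 4 times beyond the spread between mice. By limma's F test, with Benjamini-Hochberg adjustment over all 24086 names, 1 of 2998 regions passed an adjusted p under 0.05 (0.0334% of regions), against 0.166% of all names tested. The 24-hour cosine test, also by limma, called 2 regions, against a background of 0.0706%. For CT12 against CT0 limma called 1 region (background 0.0581%), and for CT18 against CT6 also 1 (background 0.133%). CT18 against CT12, a pair added after the data were seen, gave 3 regions (background 0.411%). Without CT12 mouse 11 these counts became 5, 9, 0, 19 and 9, where 0.245%, 0.282%, 0.0291%, 1.25% and 0.494% of all names were called, and 177 regions had an unadjusted p under 0.05 in the contrast with no call. Without CT12 mouse 12 they were 8, 0, 3, 2 and 69, beside 0.486%, 0.0208%, 0.324%, 0.174% and 5.23% of all names, with 239 unadjusted for the cosine test. With CT0 mouse 3 left out the first 4 counts were 0 and the last 1, beside 0.0166%, 0.0208%, 0.00415%, 0.0664% and 0.166% of all names. There 167 to 203 regions had an unadjusted p under 0.05 where limma called none. Leaving out any single mouse moved at least 1 of these counts by more than 1.5 times.

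Below the level of calls, lincRNA regions varied with time less often than coding genes. An unadjusted F test p under 0.05 was reached by 182 regions, 6.07%, against 10.6% of all names, 11.9% of coding genes and 16.9% of RefSeq lncRNA genes. For the cosine test the count was 210 regions, 7.00%, against 9.72% of all names. For CT12 against CT0, 258 regions passed at this level (8.61%, all names 11.7%), and for CT18 against CT6, 168 did (5.6%, all names 8.32%). CT18 against CT12 gave 269, 8.97%, against 16.6% of all names. The lower share held in each of the 4 level groups: in the dimmest group 6.08% of lincRNA regions and 13.5% of coding genes, and in the brightest 3.14% and 8.29%. Without CT12 mouse 11 the F test shares were 8.01% of lincRNA regions and 12.3% of all names. With slide as a block they were 11% (330 regions) and 15.3%, and for the cosine test 13.1% (393 regions) and 14.4%. With every probe on its own, the F test shares were 8.13% of lincRNA probes (572) and 10.6% of all probes. The cosine test shares were then 8.67% (610) and 9.82%. Median centring gave F test shares of 4.3% (129 regions) and 5.72%, and normexp background correction 3.9% (117 regions) and 10.2%. The size of the gap thus depended on the processing. These shares describe the classes, and no test of the difference between classes was made.

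**Figure D3:**
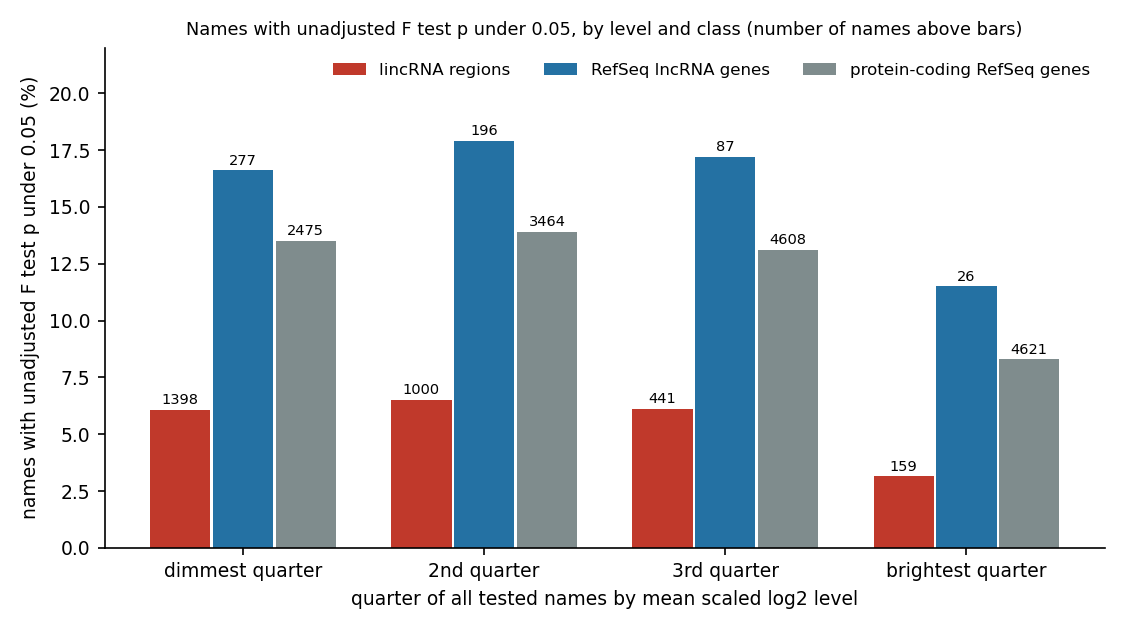
Share of names (%) with an unadjusted F test p under 0.05 over 4 circadian times, in 4 equal groups of all 24086 tested names by mean level, for 3 classes. LincRNA regions stand at 3.14% to 6.5% and lie below both other classes in every group.

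The direction of the weak lincRNA differences rested on scaling and on CT0 mouse 3. Of the 210 regions with an unadjusted cosine p under 0.05, 159 (75.7%) had a fitted peak between CT18 and CT6, as did 826 of 1583 coding genes (52.2%). Without CT0 mouse 3 the lincRNA share was 53.6%, with quantile normalization 53.4% and with median centring 39.2%. Likewise, of the 258 regions with an unadjusted p under 0.05 for CT12 against CT0, 55 were higher and 203 lower at CT12. Without CT0 mouse 3 the split was 73 higher and 94 lower, and with quantile normalization 116 and 124. For CT18 against CT6 it was 76 higher and 92 lower, and with quantile normalization 97 and 55. Median centring moved the median of all names for CT12 against CT0 from -0.02 to 0.19.

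The region called by the F test was chr1:85117750-85129200 on the forward strand, whose probes are the first shown above. The nearest named probe, of A530032D15Rik, lay 32.5 kb away on the opposite strand. Its level was -3.03, -2.92 and -2.78 in the 3 mice at CT0, -3.35, -3.37 and -3.26 at CT6, -3.49, -4.04 and -3.84 at CT12, and -1.96, -2.61 and -2.23 at CT18. The CT18 mice were above all others and the CT12 mice below all others. The F test gave an adjusted p of 0.0408 with limma. CT18 exceeded CT12 by 1.53 ± 0.18 (SE) log2, 2.88-fold, with a limma adjusted p of 0.0165, and within the 3 slides the difference was 1.53, 1.43 and 1.61. All 3 detected probes of the region gave this order of CT18 over CT12, by 1.51, 1.53 and 1.64. This difference was 1.4 without CT12 mouse 11 (limma adjusted p 0.028), and without CT0 mouse 3 it was 1.53 (0.037). The F test call was kept under 9 of 23 alternatives, with adjusted p from 0.0300 to 0.189, and the CT18 against CT12 call under 19 of 23.

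**Figure D4:**
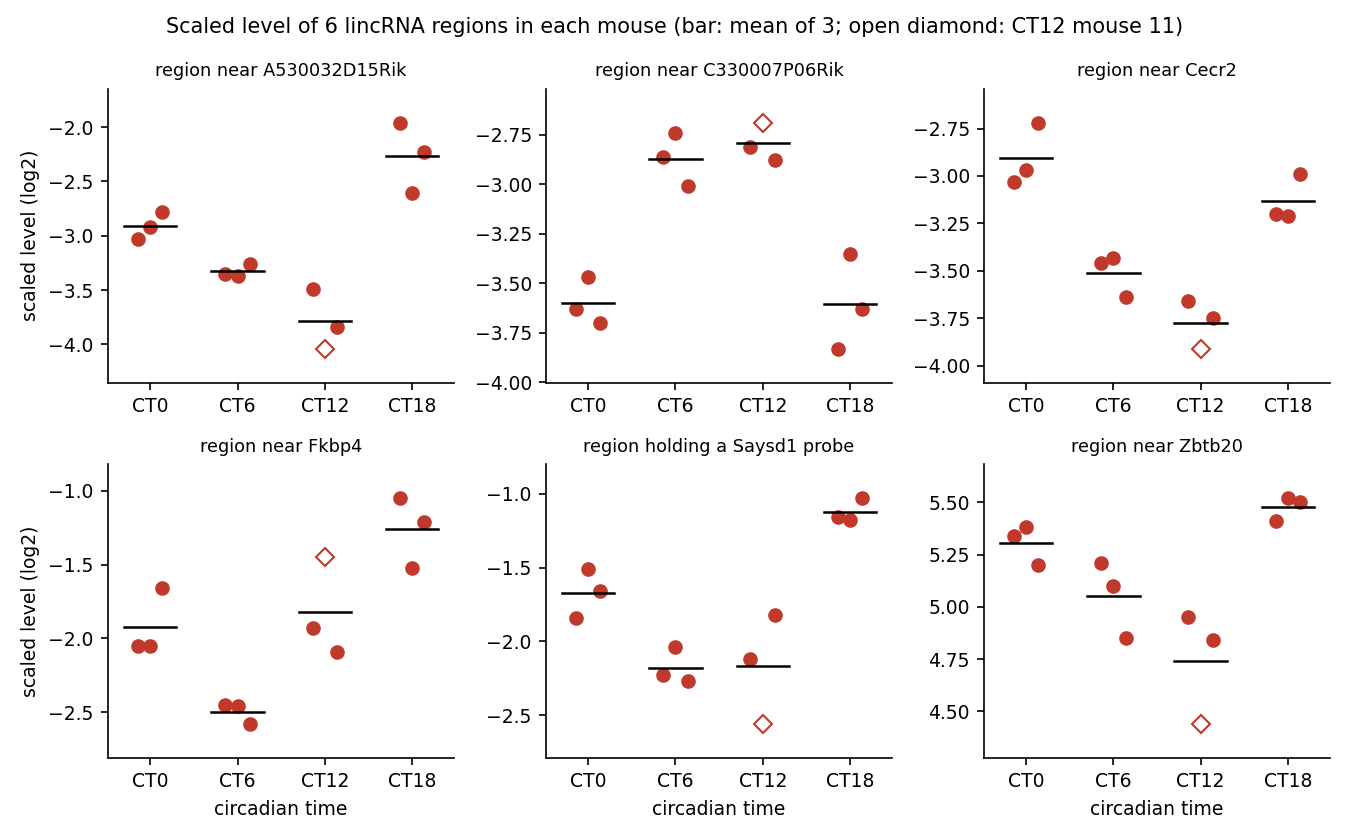
Scaled log2 level (y axis) of 6 lincRNA regions at 4 circadian times, 1 point per mouse, with a bar for the mean of 3 mice and an open diamond for CT12 mouse 11. In the region near A530032D15Rik the CT18 mice lie between -2.61 and -1.96, above all other mice.

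The brighter of the 2 detected probes of a region on the X chromosome was higher at CT6 and CT12 than at CT0 and CT18. The region lies at chrX:34360500-34388500 on the reverse strand, 68 bases from a probe of C330007P06Rik on the same strand. That probe read -3.63, -3.47 and -3.70 at CT0, -2.86, -2.74 and -3.01 at CT6, -2.81, -2.69 and -2.88 at CT12, and -3.83, -3.35 and -3.63 at CT18. The mice of CT6 and CT12 lay above all those of CT0 and CT18. The cosine test placed its peak at 9.18 h with a limma adjusted p of 0.0343, kept under 6 of 23 alternatives (0.0223 to 0.410). CT18 was lower than CT12 by 0.81 ± 0.13 log2 (SE; limma adjusted p 0.0413), a call kept under 4 of 23 alternatives, and the adjusted p was 0.0643 without CT12 mouse 11 and 0.067 without CT0 mouse 3. Of its 5 probes 2 were detected. The dimmer one differed by -0.23 for CT12 against CT0, with means of -4.81 and -4.58, and by -0.19 for CT18 against CT12. The sign of its first difference rested on single libraries. Dropping CT0 mouse 3 turned that value to 0.35, and dropping CT12 mouse 11 brought it to -0.0. The latter step also moved CT18 against CT12 to -0.42. For CT18 against CT6 the dimmer probe differed by -0.67 and the brighter by -0.74, in the same direction. C330007P06Rik itself stood at 3.45 ± 0.18 at CT0 and 3.34 ± 0.14 at CT12 (SD, n = 3), with a limma F test adjusted p of 0.949.

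The region at chr6:120670699-120677449 on the forward strand was highest around CT0. It lies 3.86 kb from a probe of Cecr2, a chromatin remodelling factor, on the same strand. Its level was -3.03, -2.97 and -2.72 at CT0, -3.46, -3.43 and -3.64 at CT6, -3.66, -3.91 and -3.75 at CT12, and -3.20, -3.21 and -2.99 at CT18. The CT0 and CT12 mice did not overlap. CT12 was lower by 0.86 ± 0.12 log2 (SE), 1.82-fold, with a limma adjusted p of 0.0488, and lay lower on all 3 slides, by values of -0.62, -0.93 and -1.03. Without CT12 mouse 11 the difference was -0.79 (0.0942), and without CT0 mouse 3 it was -0.77 (limma adjusted p 0.211). The cosine test gave a limma adjusted p of 0.0407 with a peak at 22.4 h. The pair call was kept under 2 of 24 alternatives (adjusted p 0.0383 to 0.844) and the cosine call under 4 of 23 (0.0324 to 0.586). The 3 other detected probes differed by -0.15, -0.41 and -0.67 in CT12 against CT0, all in the same direction.

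At chr6:128393530-128394127 on the forward strand, CT18 was higher than CT6. The nearest named probe, 12.9 kb away on the opposite strand, was of Fkbp4, a co-chaperone of steroid hormone receptors. The region read -2.05, -2.05 and -1.66 at CT0, -2.45, -2.46 and -2.58 at CT6, -1.93, -1.45 and -2.09 at CT12, and -1.05, -1.52 and -1.21 at CT18. The 3 mice of CT6 lay below all others. CT18 exceeded CT6 by 1.24 ± 0.19 log2 (SE), 2.36-fold, with a limma adjusted p of 0.0439, and by 1.40, 0.94 and 1.37 within the slides. The second detected probe gave 1.19. The call was kept under 10 of 24 alternatives, with adjusted p from 0.00955 to 0.249, the smallest without CT12 mouse 11, and was 0.0615 without CT0 mouse 3. Fkbp4 differed by 0.67 ± 0.22 log2 (SE) in this contrast, with a limma adjusted p of 0.363.

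A region that holds a probe of Saysd1 on its own strand rose at CT18. It lies at chr14:20894857-20902507 on the reverse strand, and its 2 probes were both detected. It read -1.84, -1.51 and -1.66 at CT0, -2.23, -2.04 and -2.27 at CT6, -2.12, -2.56 and -1.82 at CT12, and -1.16, -1.18 and -1.03 at CT18. All CT18 mice were above all others. CT18 exceeded CT12 by 1.05 ± 0.17 log2 (SE; limma adjusted p 0.0413), kept under 8 of 23 alternatives, and CT6 by 1.06 (0.0520). The former was 0.85 (limma adjusted p 0.0403) without CT12 mouse 11 and 1.05 (0.068) without CT0 mouse 3. The named Saysd1 probe gave 1.01 ± 0.12 and 1.05 ± 0.12 for the same contrasts, with limma adjusted p of 0.0165 and 0.0106. The lincRNA name and the gene name thus read the same strand of the same interval.

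The forward-strand region at chr16:43623581-43642715, chosen after its values were seen, had 10 probes, the most that any region had. It lies 4.49 kb from a probe of Zbtb20 on the same strand, and Zbtb20 encodes a transcription factor needed for the hippocampal CA1 field. As gene ends were not looked up, the region may be part of Zbtb20 itself. All 10 probes of the region were detected. Its brightest probe read 5.34, 5.38 and 5.20 at CT0, 5.21, 5.10 and 4.85 at CT6, 4.95, 4.44 and 4.84 at CT12, and 5.41, 5.52 and 5.50 at CT18. The CT18 mice were above all others, while CT6 and CT12 overlapped. In all 10 probes the mean at CT18 was above that at CT12, by 0.73 to 1.05. The difference of the brightest probe was 0.73 ± 0.14 log2 (SE), with a limma adjusted p of 0.0688, and for Zbtb20 it was 0.86 ± 0.17 (0.0733). Neither passed the threshold. CT12 mouse 11 was the lowest mouse for both, and without it the 10 probes differed by 0.58 to 0.73 and the brightest by 0.58 ± 0.12 (SE; limma adjusted p 0.0696).

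Other regions led their comparisons without passing it in the 12 mice. The reverse-strand region at chr2:32960372-32986870, 5.80 kb from a same-strand probe of Ralgps1, read -1.94, -1.94 and -1.86 at CT6 and -2.62, -2.60 and -2.69 at CT18. These mice did not overlap, and the difference was -0.72 ± 0.11 log2 (SE; limma adjusted p 0.0515). Its other probe differed by -0.40. The reverse-strand region at chr5:139230332-139230823, 11.8 kb from Fam20c on the opposite strand, read 1.18, 1.35 and 1.36 at CT6 and 0.54, 0.78 and 0.78 at CT18. There the difference was -0.59 ± 0.12 (0.111), but the 2 other probes of the region gave -0.06 and -0.74. At chr1:135956616-135957485 on the reverse strand, 12.6 kb from Fmod, CT12 mice read -3.53, -3.83 and -3.58 and CT0 mice -3.03, -2.65 and -2.85. CT12 was lower in all 3 probes of that region, by values of -0.36, -0.80 and -1.10 (main probe, limma adjusted p 0.214). These were, without CT12 mouse 11, -0.25, -0.71 and -0.39, and without CT0 mouse 3 -0.48, -0.81 and -0.83.

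At CT12 a pair of regions stood higher than at the other times, with the mice unequal. The forward-strand region at chr11:93994795-94017045, 7.43 kb from Spag9, read -1.40, -0.33 and -1.41 at CT12 and between -2.34 and -1.84 in the other mice. All CT12 mice were above the rest, and mouse 11 was the highest. CT18 against CT12 gave -1.23 ± 0.24 log2 (SE; limma adjusted p 0.0699), and -0.87 (0.0177) without mouse 11. The reverse-strand region at chr13:56851404-56851796, 7.77 kb from Smad5 on the opposite strand, read -0.37, -0.79 and -1.19 at CT12 and -1.60, -1.65 and -1.48 at CT0. The difference of 0.79 ± 0.18 (SE) had a limma adjusted p of 0.221, and its 2 other probes gave 1.13 and 1.05. Without CT12 mouse 11 the adjusted p was 0.296 and without CT0 mouse 3 it was 0.472.

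Without CT12 mouse 11, with 2 mice left at CT12, further regions passed. For CT18 against CT6 the 19 regions, 0.634% of 2998 against 1.25% of all names, included chr17:56687541-56694616 on the reverse strand, 7.77 kb from a probe of Safb2, with means of -0.59 ± 0.12 at CT6 and 0.49 ± 0.23 at CT18 (SD, n = 3). Its difference of 1.08 log2 had a limma adjusted p of 0.00759, against 0.181 with all mice. They also included chr16:23992037-24001037 on the forward strand, 26.8 kb from Bcl6, a transcriptional repressor. All 7 probes of that region were detected, and the main one rose by 1.0 (adjusted p 0.0289, limma; 0.214 with all mice). Another of these was chr14:55671783-55680316 on the reverse strand, beside Zfhx2, at 1.29 ± 0.06 at CT6 and 1.81 ± 0.05 at CT18 (SD, n = 3; limma adjusted p 0.0174, against 0.664 with all mice). These regions were chosen after their values were seen. The mice at CT6 and CT18 are the same in both fits, so these differences did not move, and the estimated spread did.

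A few regions crossed the detection limit between times, all near the background. In 25 of 2998 regions the standing probe was well above background on all 3 arrays of one time and on none of another. How often other names did so was not counted, so this number does not set lincRNA regions apart. The regions were chosen by this detection, so the direction of the differences given for them followed from the choice. The folds describe the chosen regions and are no evidence of a time difference. For chr15:12126433-12126745 on the reverse strand, 12.3 kb from Zfr, CT6 mice read -4.22, -4.78 and -3.75, and no CT18 mouse was above background. The mean at CT6 was at least 2.18-fold higher than at CT18, counting each dim array at its dimmest detected level or its own value, whichever was higher. Its limma F test adjusted p was 0.559. For chr7:117144653-117150145 on the reverse strand, CT0 was at least 2.08-fold higher than CT12 (F test adjusted p 0.578, limma), and at least 1.34-fold higher without CT0 mouse 3. CT12 mouse 12, at -4.65, lay above CT0 mice 1 and 2. None of the 10 such regions with the smallest F test p passed, their adjusted p lying between 0.152 and 0.578.

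The 4 detected regions beside clock genes did not show a time difference that passed the F test, which 0.166% of all names passed. With so few regions and so small a share, the lack of a call does not set them apart. Of the 8 regions whose nearest named probe within 100 kb was of a listed clock gene, 4 were detected, beside Nfil3 (2), Csnk1e and Rorb. The forward-strand region at chr13:53097579-53113554, 34.9 kb from Nfil3, a repressor of clock output genes, had an F test adjusted p of 0.808 by limma, the smallest of the 4. The region at chr19:19005109-19008657, on the reverse strand and overlapping Rorb, an activator of Bmal1, ranged from 1.65 to 2.37 over the mice (limma adjusted p 0.929). Nfil3, Csnk1e and Rorb themselves had limma F test adjusted p of 0.493, 0.744 and 0.995.

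Among 46 listed named lncRNAs, 32 were tested and limma's F test called 0, with 5 at an unadjusted p under 0.05, where 0.166% and 10.6% of all names passed these thresholds. The smallest p was that of Mir9-3hg, the host transcript of a neuronal microRNA, at 1.23 ± 0.05 at CT6 and 0.57 ± 0.09 at CT18 (SD, n = 3). Its adjusted p was 0.0639 for limma's F test and 0.0410 for the cosine test, with a peak at 7.80 h. Sox2ot, Rmst, Meg3 and TUG1 followed, with adjusted p of 0.412 to 0.465.

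Single mice differed from the rest by far more than the time differences given above. Over the 2998 regions, 78 in CT12 mouse 11 lay more than 2 log2 from the median of the other 11 libraries, 58 lower and 20 higher, 2.60% of regions. In CT0 mouse 3 there were 49, of which 48 were higher. In each of the other 10 libraries there were 2 to 9. In CT12 mouse 11 the share of coding genes so far apart was 4.98%, and that of RefSeq lncRNA genes 6.31%.

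**Figure D5:**
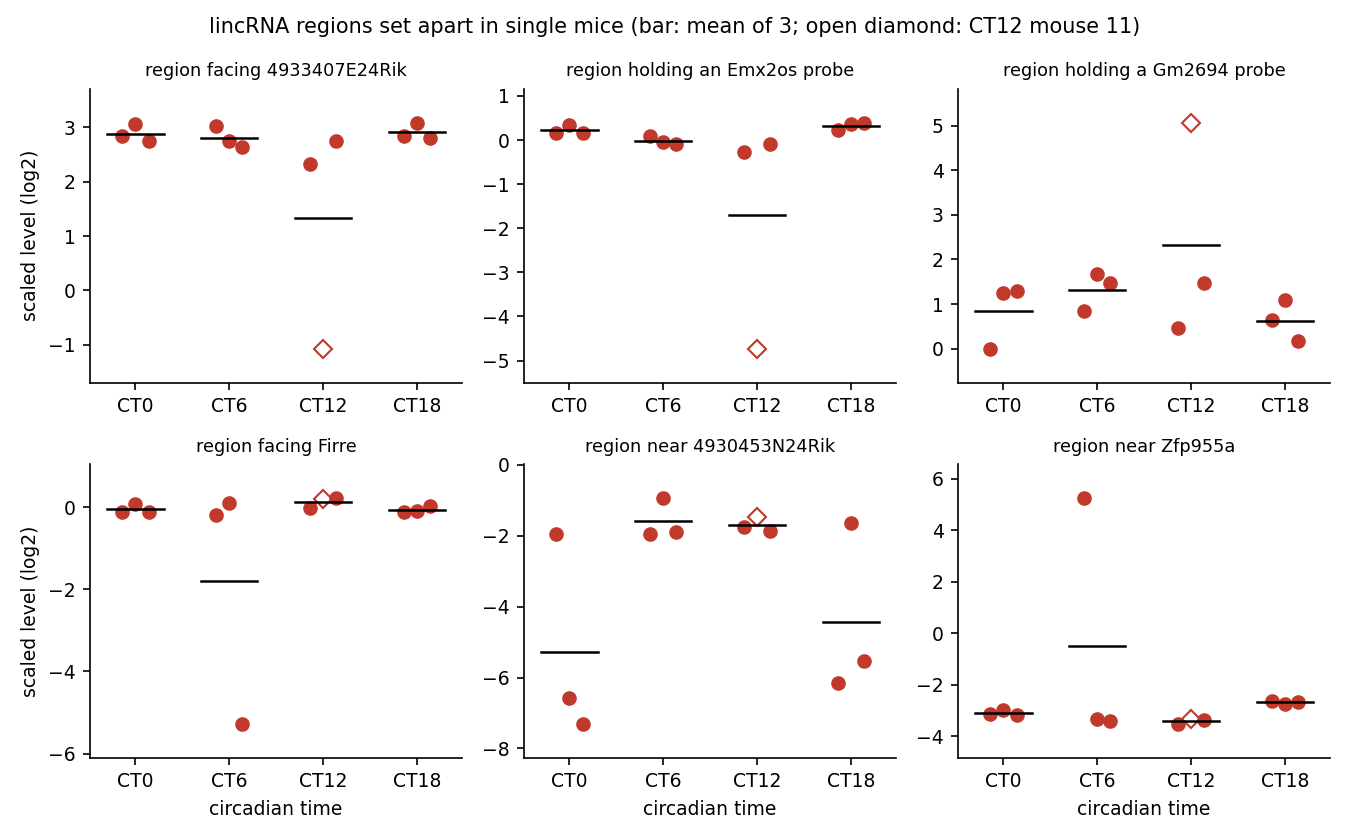
Scaled log2 level (y axis) of 6 lincRNA regions at 4 circadian times, 1 point per mouse, with a bar for the mean of 3 mice and an open diamond for CT12 mouse 11. The region holding an Emx2os probe reads -4.73 in that mouse and -0.28 to 0.39 in the other 11, and the region facing Firre reads -5.28 in CT6 mouse 7.

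Regions far lower in CT12 mouse 11 included some beside transcription factor genes. The region at chr19:59498190-59531390 on the reverse strand, which holds a probe of Emx2os, read -4.73 there and -0.28 to 0.39 in the other 11 mice. Emx2os is antisense to Emx2, a cortical patterning gene that read -7.63 in that mouse and -1.82 to -0.91 in the others. The region at chr4:124127144-124334840 on the reverse strand, with 5 of 5 probes lower, read -1.07 against 2.32 to 3.08. Pou3f1, a POU-domain factor, read 0.31 against 2.76 to 3.60 in the same mice.

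The 6 regions highest in CT12 mouse 11 relative to the others lay at 3 places, since 3 on chromosome 8 overlap, as do 2 on chromosome 10. The forward-strand region at chr8:89996710-90049453, which holds a probe of the noncoding RNA Gm2694, read 5.06 there and 0.00 to 1.67 in the others. The overlapping forward regions at chr8:90048940-90049461 and chr8:90000619-90061169 read 4.13 and 1.54, against medians of 0.19 and -2.44. Cbln1, a secreted synapse organiser, read 5.0 in that mouse and -1.43 to 0.65 in the others. At chr10:69669025-69686275 on the forward strand, with a probe of Mrln, the value was 0.54 against -3.47 to -2.01. These shifts stood beside the low pyramidal and granule neuron markers of that library, and their relation was not tested. As CT12 has 3 mice, the mean of the Emx2os region at CT12 was -1.70 ± 2.63 (SD), and CT12 against CT0 gave a limma adjusted p of 0.453.

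In other mice single regions stood apart. The forward-strand region at chrX:47890565-47915775, on the strand opposite to Firre, read -5.28 in CT6 mouse 7 and -0.19 to 0.22 in the other 11. Its 3 probes read -7.35, -5.28 and -6.42 in that mouse, and all 3 were low. Firre, an X-linked noncoding RNA of nuclear organisation, read -0.22 to 0.48 over all 12 mice. The reverse-strand region at chr16:64758224-64765674 split the mice: CT0 mice 2 and 3 and CT18 mice 14 and 16 read -6.59, -7.31, -6.16 and -5.53, and the other 8 between -1.95 and -0.94. A second detected probe of the region was low in the same 4 mice, at -6.10, -5.60, -7.66 and -6.55, while the third, at -5.03 to -3.85, did not separate them. 4930453N24Rik, 592 bases away on the same strand, stayed between 0.67 and 1.05.

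Some single-mouse values were limited to 1 probe. The reverse-strand region at chr17:33372482-33375285, 1.56 kb from Zfp955a, read 5.25 in CT6 mouse 5 and -3.53 to -2.65 elsewhere. Its 2 other detected probes read -3.50 and -4.47 in that mouse, within the range of the other mice. The reverse-strand region at chr8:13537677-13547026 read 0.80 in CT0 mouse 2 and -5.21 to -2.79 elsewhere, and its 2 other probes were not detected. At chr5:110964854-110965222 on the forward strand, CT12 mouse 11 read -7.95 and CT0 mouse 3 -0.97, with the other 10 between -3.98 and -3.54. The second detected probe was low in CT12 mouse 11 too, at -7.94 against -5.33 to -3.58, while CT0 mouse 3 read -4.69 there.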

How the data were processed

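The deposited scanner files of 12 one-colour Agilent arrays (Cy3, 1 mouse per array, 3 per circadian time) were analysed. Per the file headers, Agilent Feature Extraction 10.7.3.1 gave each spot an intensity, background-subtracted and detrended within the array, with no scaling between arrays. The deposited spot flags (other, 0 or 1) gave detection, and probe coordinates are on mm9, per the file headers. The deposited value table holds log2 values whose columns share nearly one distribution (medians 5.358); the authors' step that made it is not given in the sources used here, and it served as an alternative. Between 59.3% and 77.1% of spots lay well above background, 0 spots were saturated, and local background was 100 on CT0 mouse 1 against 25 to 37.

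Each array's processed signals were put on a log2 scale and centred on the 75th percentile of its non-control probes. Outlier spots and 146 probes lacking a value were left out, and a region or gene was represented by its brightest probe on average. R 4.3.3 and limma 3.58.1 fitted all 24086 names together, with Benjamini-Hochberg adjustment over all, and the procedure was checked on simulated data. Names came from a RefSeq table (GRCm38.p6; 26687 probes by accession, 2536 by symbol, 474 by synonym), without its coordinates. Distances are to the nearest named-gene probe. Whether mice were littermates is not given, and the number of mice limits precision. Slide was a block in an alternative; each of 3 slides held 1 array per time.

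The members and lists were chosen with earlier results of these data known. Named were regions called, the 10 smallest F test p, 4 higher and 4 lower per pair of opposite times, the 10 brightest, the 6 widest ranges, 10 crossing the detection limit, and those beside clock genes; others are said to be chosen later or lie furthest apart in CT12 mouse 11. Some regions that this rule names appear above only in counts. One item that the rule names is not reported here.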

Additional observations from a re-analysis of the deposited data

How the results depend on the processing

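The numbers of lincRNA regions called were small and moved with nearly every choice. With all mice they were 1 by the F test, 2 by the cosine test, 1 for CT12 against CT0, 1 for CT18 against CT6 and 3 for CT18 against CT12. Of all names 0.166%, 0.0706%, 0.0581%, 0.133% and 0.411% were called. In the same order, quantile normalization gave 1, 0, 0, 3 and 5, the deposited values 1, 0, 0, 3 and 4, median centring 0, 0, 0, 0 and 1, scaling on named genes 2, 2, 0, 3 and 4, and normexp 0, 0, 0, 1 and 5. No detection filter gave 0 in all 5, detection on all 12 arrays 3, 2, 1, 4 and 4, every probe on its own 0, 2, 0, 1 and 2, and the mean of a region's probes 0, 0, 0, 3 and 2. A trended, robust variance gave 1, 0, 0, 2 and 7, and slide as a block 2, 2, 2, 1 and 6. Fitting the 6 arrays of a pair gave 0 for CT12 against CT0 and 9 for CT18 against CT6. Over these alternatives the F test called 0.00555% to 0.245% of all names and the cosine test 0.0125% to 0.112%. The pairs of times, in the same order, called 0% to 0.0589%, 0.0125% to 0.294% and 0.00832% to 0.693%. By limma at an unadjusted p under 0.05 these alternatives held 108 to 457 regions, or 458 to 765 probes for every probe on its own. Leaving out 1 mouse gave 0 to 8, 0 to 9, 0 to 3, 0 to 19 and 0 to 69. Beside these, 0% to 0.486%, 0% to 0.282%, 0.00415% to 0.324%, 0.00415% to 1.25% and 0% to 5.23% of all names were called. Detected lincRNA probes with complete values numbered 5777 on all 12 arrays, 12089 on at least 1 array and 7103 without CT12 mouse 11, against 7036. Of 1004 results for single regions under an alternative, 839 kept direction and side of the threshold, 124 lost it, 40 gained it and 1 turned. The last was chr6:128393530-128394127 for CT12 against CT0, not called, at -0.09 (limma adjusted p 0.924) without CT12 mouse 11. Over its 24 alternatives the limma adjusted p lay between 0.512 and 0.97. Where a count changed, the cause was not tested. No paired analysis was possible because mouse numbers are not shared between times; slides, which hold 1 mouse of each time, were the block above. Weak lincRNA signals lie near background, which limits what the arrays can show.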
